A study of Mus musculus with 4 samples.

Results

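Chemokines are small secreted proteins that guide leukocytes along a gradient, and their receptors are G protein-coupled receptors on the cells that follow it. Expression of 57 such genes, 35 ligands and 22 receptors, was followed at 89 probe sets in non-tumorous liver of mice with or without the histone methyltransferase G9a in hepatocytes. The members were chosen by symbol alone: every probe set that names exactly 1 gene whose symbol is that of a CC, CXC, CX3C or XC chemokine, a receptor of these families, an atypical receptor Ackr1 to Ackr4, Pf4 or Ppbp. They are 57 of 18193 genes and 89 of 34945 probe sets with 1 gene. A further 4 probe sets name a chemokine among several near-identical genes and were left out.
The liver came from 2 WT mice, with Alb-Cre and intact G9a (Alb-Cre; G9a+/+), and from 2 G9aΔHep mice, labelled G9aKO (Alb-Cre; G9aflox/flox), in which the albumin promoter drives Cre in hepatocytes, so that leukocytes, endothelium and stellate cells keep the gene. All were male, backcrossed to C57BL/6 and 30 weeks old. All had received 25 mg/kg of the DNA-damaging carcinogen DEN at 15 days of age and then 22 weekly injections of 0.5 ml/kg CCl4, a hepatotoxin, so no group without injury was compared. Each RNA was read on 1 GeneChip Mouse Genome 430 2.0 array, and a value is a MAS5 signal, an intensity on a linear scale with a call of Present, Marginal or Absent. A signal depends on the probes as well as the RNA, so that signals of different genes are not ranked here.
The trimmed mean signal was 500.0 on every array, and between 41.3% and 43.9% of all probe sets were called Present. The 95% quantile of Absent signals was 170 to 181, and differences below that level are uncertain. Ehmt2, which encodes G9a, had signals of 640 and 492 in WT and 174 and 164 in G9aΔHep liver at its detected probe set, Present only in WT. The hepatocyte marker Alb was Present on all arrays, at 57072 to 69483. The ratio of 3′ to 5′ signal for the Gapdh control was 0.705 and 0.688 in WT and 0.763 and 0.738 in G9aΔHep liver, and that for the Actb control was 2.03 to 2.54, the highest in the first G9aΔHep mouse.

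In the injured liver, Kupffer cells, endothelium, stellate cells and hepatocytes all release chemokines. CCL2 with CCR2 draws monocytes, CXC ligands such as CXCL1 draw neutrophils, CXCL9 and CXCL10 draw T cells through CXCR3, and CXCL13 draws B cells through CXCR5. Many of these genes are known to be switched on by NF-κB or by interferon, whereas CXCL12 and other homeostatic ligands are made without inflammation. Atypical receptors bind chemokines without classical G protein signalling and remove or carry them.

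Promoters are shown for the 4 members with the smallest p-values between genotypes and for Cxcl10, an interferon-inducible ligand, because they differ in matches to the motif forms marked below. Each is the 250 bases before the transcription start from RefSeq (GRCm38.p6), 5′ to 3′ on the strand of the gene, and capitals mark a match to a form of the NF-κB motif (GGG, 2 bases of any kind, TTTCC) or of the interferon response motif (GAAA, 2 bases of any kind, GAAA), on either strand.
Cxcl13, chr5:95956689-95956938, plus strand: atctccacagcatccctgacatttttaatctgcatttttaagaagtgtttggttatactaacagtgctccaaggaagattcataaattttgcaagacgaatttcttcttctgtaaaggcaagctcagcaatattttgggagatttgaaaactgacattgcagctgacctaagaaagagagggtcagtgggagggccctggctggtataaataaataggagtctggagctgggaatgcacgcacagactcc
Ccl6, chr11:83593088-83593337, minus strand: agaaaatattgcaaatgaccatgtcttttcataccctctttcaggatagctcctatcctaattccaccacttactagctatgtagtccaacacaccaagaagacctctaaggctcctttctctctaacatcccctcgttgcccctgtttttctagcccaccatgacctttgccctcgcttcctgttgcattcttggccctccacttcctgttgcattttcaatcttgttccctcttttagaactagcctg
Ccl9, chr11:83578637-83578886, minus strand: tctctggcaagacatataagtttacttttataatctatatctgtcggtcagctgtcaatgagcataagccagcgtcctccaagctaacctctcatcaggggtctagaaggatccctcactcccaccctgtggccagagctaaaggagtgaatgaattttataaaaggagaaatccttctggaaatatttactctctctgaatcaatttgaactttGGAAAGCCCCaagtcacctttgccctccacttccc
Cxcl1, chr5:90890995-90891244, plus strand: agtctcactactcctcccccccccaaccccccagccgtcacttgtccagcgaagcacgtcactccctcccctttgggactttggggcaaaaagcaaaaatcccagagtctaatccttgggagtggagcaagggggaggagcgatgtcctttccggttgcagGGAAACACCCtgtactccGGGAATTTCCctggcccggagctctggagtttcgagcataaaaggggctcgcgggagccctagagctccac
Cxcl10, chr5:92348890-92349139, minus strand: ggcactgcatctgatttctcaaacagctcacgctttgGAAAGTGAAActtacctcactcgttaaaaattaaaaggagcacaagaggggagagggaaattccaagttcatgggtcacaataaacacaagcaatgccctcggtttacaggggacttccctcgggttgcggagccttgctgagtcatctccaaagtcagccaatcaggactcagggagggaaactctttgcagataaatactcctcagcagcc
Windows of 300 bases, 250 before and 50 after the start, were given for 44 of the 57 member genes. The NF-κB form was found in 6 of these 44 genes, or 13.6%, against 1.89% of all 27025 genes with a window. The 6 were Cxcl1, Cxcl2, Cxcl3, Ccl9, Ccl20 and Ccr3, and Cxcl1 and Cxcl2 held 2 matches each. The interferon form was found in 2, Cxcl10 and Cxcl14, or 4.55% of member genes against 3.99% of all genes. The windows of Cxcl13 and Ccl6 held neither form. Other forms of these motifs were not searched for, so lower case letters, as in Cxcl10, do not show that a motif is missing. A match is a stretch of letters and was not tested as a binding site.

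Detection varied between mice of the same genotype. Of the 57 member genes, 25 and 22 had a probe set called Present in the WT mice, and 33 and 20 in the G9aΔHep mice. The first G9aΔHep mouse was the highest of the 4 and the second the lowest, so the groups overlapped. These counts are 43.9%, 38.6%, 57.9% and 35.1% of the member genes, while the share of all 18193 genes stayed between 54.7% and 57.1%.

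**Figure D1:**
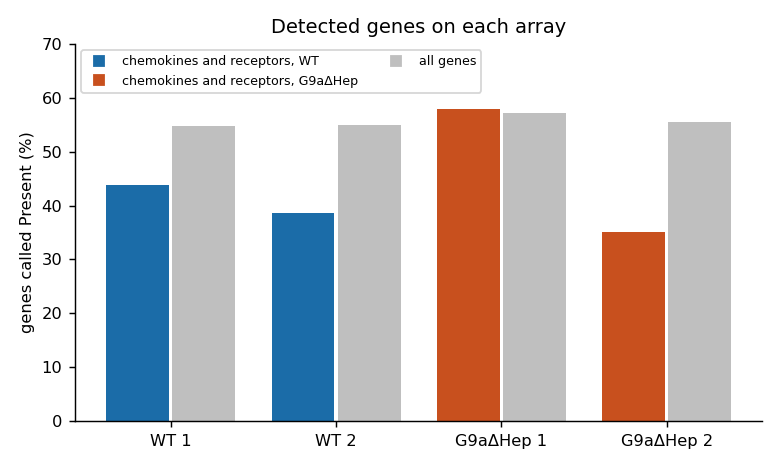
Percentage of genes with a probe set called Present on each of the 4 arrays, for the 57 chemokine and receptor genes (blue for WT, orange for G9aΔHep) and for all 18193 genes (grey). Member genes lie at 57.9% in the first and 35.1% in the second G9aΔHep mouse, whereas all genes lie between 54.7% and 57.1%.

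A gene was tested if a probe set was Present on at least 2 arrays, which held for 29 member genes, 19 ligands and 10 receptors, at 39 probe sets. The other 28 were not tested, and 20 of them were Present on no array, among them Ccr7 and Cxcr5, which place lymphocytes in lymphoid tissue, and the eosinophil attractants Ccl11 and Ccl24 with their receptor Ccr3. The remaining 8 were Present on exactly 1 array. For 5 of these it was the first G9aΔHep mouse, namely for Ccl2, Ccl12, Ccl22, Ccr1 and Ccr9. Ccl4 and Ccl7 were Present only in the first WT mouse and Cx3cl1 only in the second.
Ccl2, the main attractant of CCR2+ monocytes, had signals of 14.9 and 71.1 in WT and 169 and 5.22 in G9aΔHep liver. The first G9aΔHep mouse was thus the highest and the second the lowest, and the groups overlapped. Ccr1, a receptor of several inflammatory CC ligands, had signals of 58.4 and 77.5 in WT and 153 and 54.7 in G9aΔHep liver at its brighter probe set, in the same order of G9aΔHep mice. None of the 6 members grouped as ligands of type 2 and regulatory cells was tested.

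No chemokine or receptor gene passed the test between genotypes. In limma, 0 of 29 member genes had an adjusted p under 0.05, whereas 0.386% of the 10350 genes tested did, 0.319% higher and 0.0676% lower in G9aΔHep liver. By the methods' t-test and by limma without a mean-variance trend the member count was 0 as well, but there 0 of all genes tested passed. At an unadjusted p under 0.05, 4 members had a higher signal in G9aΔHep liver, or 13.8% of the 29, against 5.92% of all genes, and 0 had a lower one, against 4.1%. The 4 were Cxcl13, Ccl6, Ccl9 and Cxcl1, all ligands. Over both directions the count was 3 after quantile normalization, 2 after centring and 1 with the mean of the probe sets of a gene. It was 1 by the methods' t-test and 2 without a mean-variance trend. Without the trend the 2 were the receptors Cxcr4 (log2 difference 0.74) and Ackr3 (-0.65), and none of the 4 ligands. Of the members, 18 lay above 0, or 62.1% against 53.4% of all genes. The median log2 difference, G9aΔHep minus WT, was 0.19 for ligands and 0.14 for receptors, beside 0.02 for all genes.
In 14 of the 29 genes the 2 signals of one genotype lay wholly above those of the other, or 48.3%, against 41.6% of all genes. They were higher in G9aΔHep liver for 10, or 34.5% against 22.3%, and lower for 4, or 13.8% against 19.3%. The 14 include Cxcl11, Ackr1 and Ackr3, which were tested only through Present calls in the genotype where they were higher, so that their differences are a description. Relabelling 2 mice against 2 in an exact two-sided permutation test gives p = 0.33 at best, so no gene can be called from its separation alone. RNA came from whole tissue, so that fewer cells of a type and less RNA per cell cannot be told apart.
The medians depended on single mice. Over all members the median was -0.029 without the first G9aΔHep mouse and 0.42 without the second. Without the first G9aΔHep mouse the median of the ligands was -0.072, and without the second it was 0.42. Without the first WT mouse the median of the receptors was 0.71.

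**Figure D2:**
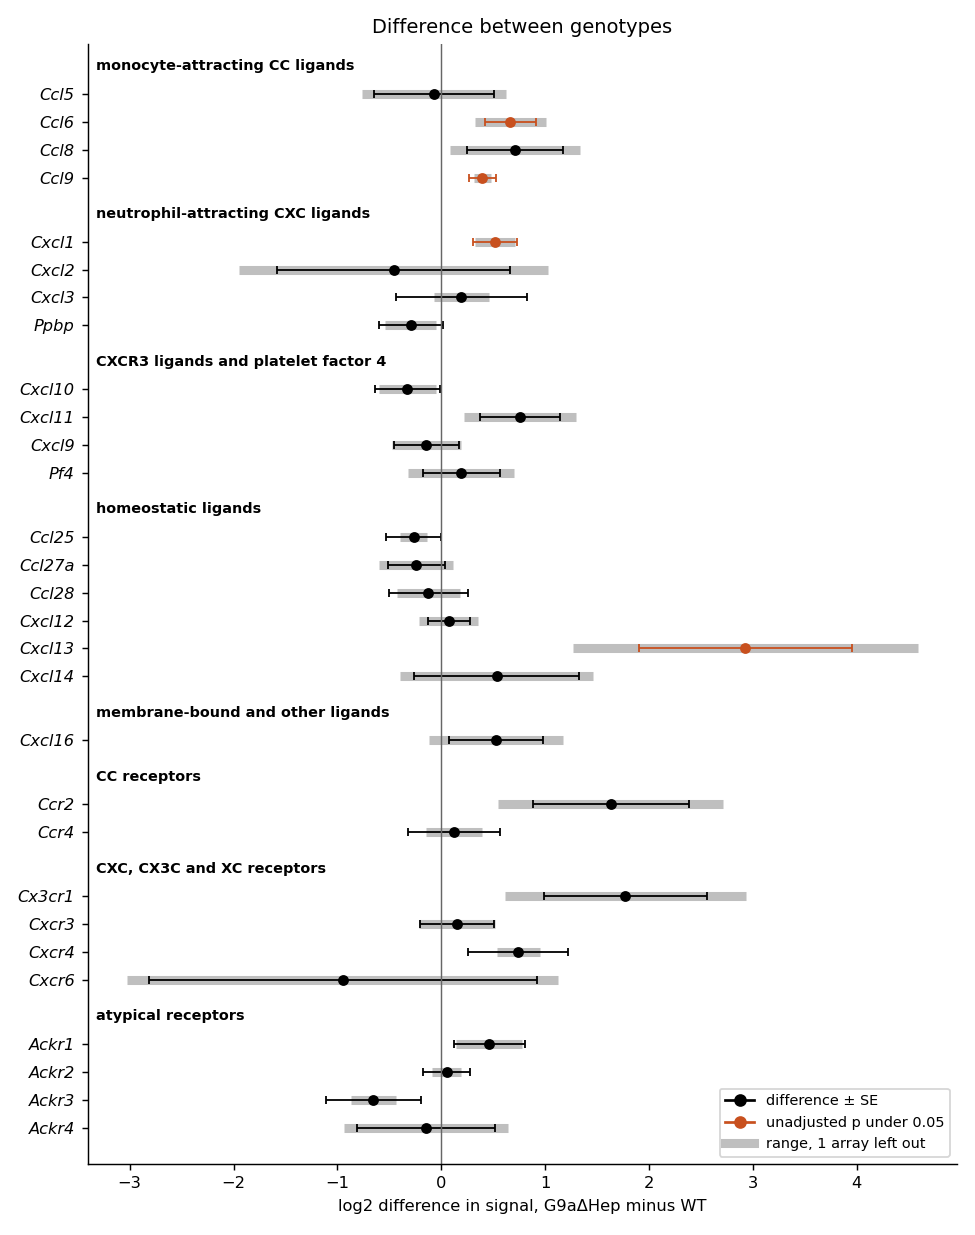
Log2 difference in MAS5 signal, G9aΔHep minus WT, for the 29 tested genes by role; points with bars are the difference ± SE from limma, orange for an unadjusted p under 0.05, and grey bands span the differences with each array left out in turn. Cxcl13 lies farthest from 0 at 2.93, and 15 of the 29 grey bands cross 0.

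Among the homeostatic ligands, Cxcl13, the B cell attractant that organises lymphoid follicles, had the largest difference of all tested members. Its signals were 308 and 3087 in WT and 11214 and 4906 in G9aΔHep liver, Present on all 4 arrays. The groups did not overlap, but the first WT mouse was far below the other 3, with a log2 difference of -3.32 between the first and second WT mouse. The log2 difference between genotypes was 2.93 (SE 1.02, adjusted p = 0.434 from limma). Leaving out the first WT mouse gave 1.26, and leaving out the second gave 4.59. The second probe set showed the same order of mice, with 340 and 2515 in WT and 8097 and 3640 in G9aΔHep liver. Cxcr5, the receptor of this ligand, was Absent on all 4 arrays, with 7.78 and 6.13 in WT and 70.3 and 44.4 in G9aΔHep liver, all below the 95% quantile of Absent signals.
Markers of other cells were read beside Cxcl13. The scavenger receptor Marco, a marker of Kupffer cells, had 261 and 3286 in WT and 4174 and 2644 in G9aΔHep liver, also lowest in the first WT mouse. Other Kupffer cell markers were less far apart in WT liver, with 2473 and 3166 for Clec4f, 4529 and 6294 for Vsig4 and 7165 and 9331 for Cd5l. Timd4 had 129, called Absent, and 334 in WT, and the macrophage marker Lyz2 had 4105 and 7611. Each of these was also lowest in the first WT mouse, whereas Cd68 was lowest in the second G9aΔHep mouse. The B cell marker Ms4a1 had 138 and 97.5 against 115 and 113, and Cd79a, which defines B cells, was Absent on all arrays. Another B cell marker, Cd79b, was Present on all 4 arrays, with 199 and 114 in WT and 173 and 96.1 in G9aΔHep liver. Jchain, a plasma cell marker, had 163 and 127 in WT and 445 and 155 in G9aΔHep liver, highest in the first G9aΔHep mouse. Mzb1, of the same marker list, had 184 and 274 in WT and 266 and 205 in G9aΔHep liver, with overlap. The part of these cells in the difference was not tested.
Cxcl12, a stromal ligand that holds CXCR4+ cells in bone marrow, had 6240 and 4215 in WT and 5735 and 5073 in G9aΔHep liver, with overlap. Its log2 difference was 0.07 (SE 0.20, adjusted p = 0.933) and -0.30 at its other detected probe set, so that its direction depended on the probe set. Cxcl14, made by many epithelia, had 264 and 75.2 against 388 and 107, and the WT mice were as far apart (1.81) as the G9aΔHep mice (1.86 on the log2 scale).
Ccl25, a ligand of CCR9 in gut and thymus, lay lower in G9aΔHep liver without overlap, with 180 and 217 against 158 and 171 (log2 difference -0.27, SE 0.27, adjusted p = 0.776), but by 0.17 higher at its other probe set. Ccl28, a mucosal ligand, likewise differed in sign between its detected probe sets, at -0.12 and 0.13. Ccl27a, a skin ligand, had 756 and 620 in WT and 452 and 742 in G9aΔHep liver with overlap. Other probe sets name it together with near-identical genes and were not used.

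Of 9 monocyte-attracting CC ligands, 4 were tested, and 3 of these were higher in both G9aΔHep mice than in both WT mice, as were 22.3% of all genes tested. Ccl9 and Ccl6, which attract myeloid cells through CCR1, are made by macrophages and lie side by side in the run Ccl5, Ccl9, Ccl6, Ccl3, Ccl4 on chromosome 11. Ccl9 had 2200 and 2464 in WT and 2994 and 3126 in G9aΔHep liver. Its difference was smaller than that of Cxcl13 but so was its spread (log2 difference 0.39, SE 0.13, adjusted p = 0.4), and it stayed between 0.31 and 0.48 whichever mouse was left out.
Ccl6 had 1189 and 1415 in WT and 2606 and 1622 in G9aΔHep liver, led by the first G9aΔHep mouse. Its log2 difference was 0.66 (SE 0.25, adjusted p = 0.463), and 0.32 without that mouse. The other probe sets of both genes gave smaller differences, 0.24 for Ccl9 and 0.59 for Ccl6, and there the groups overlapped.
Ccl8, a ligand of CCR2 and related receptors, had 112 and 107 in WT and 276 and 116 in G9aΔHep liver. The first G9aΔHep mouse stood apart from the other 3, and the log2 difference of 0.71 (SE 0.46, adjusted p = 0.662) was 0.08 without it. Ccl5, a T and NK cell product, had 773 and 295 in WT and 716 and 289 in G9aΔHep liver, so that the mice of each genotype differed more than the genotypes did. Its log2 difference was -0.07 (SE 0.58, adjusted p = 0.978).

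**Figure D3:**
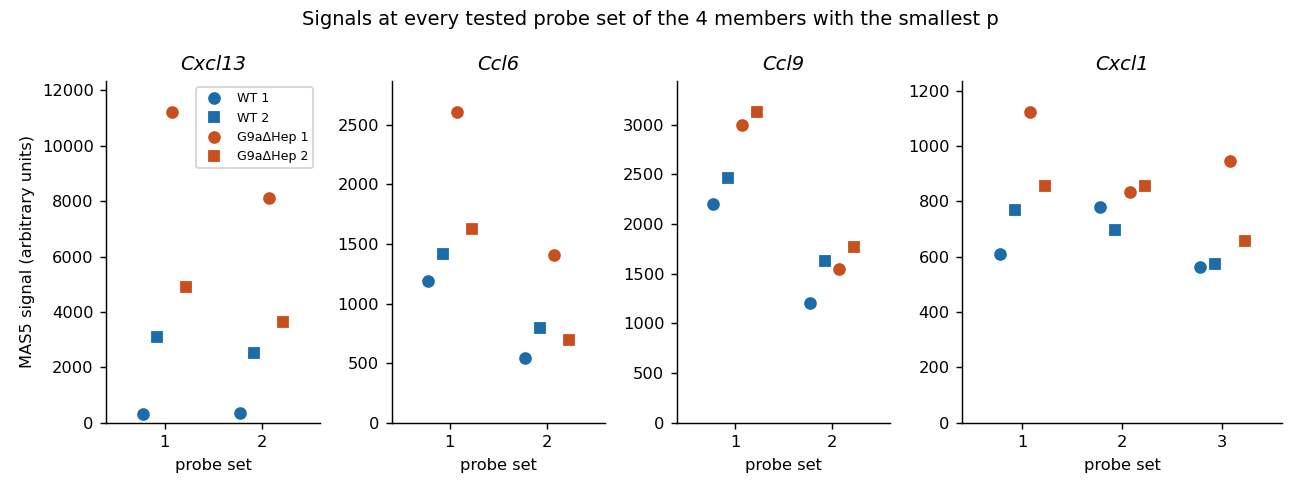
MAS5 signal on a linear axis at each tested probe set of Cxcl13, Ccl6, Ccl9 and Cxcl1, numbered by mean signal, with 1 point per array (blue for WT, orange for G9aΔHep, circles for the first and squares for the second mouse). At the brightest probe set of each gene both G9aΔHep points lie above both WT points, and at the second probe sets of Ccl6 and Ccl9 the genotypes overlap.

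Of 6 neutrophil-attracting CXC ligands, 4 were tested. Cxcl1, the ligand of CXCR2 also known as KC, had 609 and 768 in WT and 1122 and 856 in G9aΔHep liver, without overlap. Its log2 difference was 0.52 (SE 0.21, adjusted p = 0.498), and its other probe sets gave 0.47 and 0.20 in the same direction. It stayed between 0.32 and 0.71 whichever mouse was left out.
Cxcl2, which shares the receptor and the promoter motif, had 62.3 and 28.5 in WT and 86.1 and 10.9 in G9aΔHep liver. The G9aΔHep mice were the highest and the lowest of the 4, and all 4 signals lay below the 95% quantile of Absent ones. Cxcl3 was as low, with 35.5 and 37.5 against 50.2 and 34.7.
These CXC ligands and the platelet chemokines lie in 1 run of 7 members on chromosome 5, of which 5 were tested and 3 lay above 0. Ppbp, a platelet chemokine, had 145 and 203 in WT and 144 and 136 in G9aΔHep liver, without overlap (log2 difference -0.29, SE 0.31, adjusted p = 0.789). Pf4, the other platelet chemokine, had 278 and 564 against 532 and 386, with overlap. The platelet integrin Itga2b, a defining marker of that lineage, had 367 and 256 against 252 and 316. The neutrophil receptor Cxcr2 was Absent on all arrays, and the neutrophil marker S100a8 had 660 and 332 in WT and 1331 and 174 in G9aΔHep liver, the highest and lowest again in the G9aΔHep mice.

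The 3 ligands of CXCR3 were tested and none passed. Cxcl9, induced by interferon gamma, had 569 and 383 in WT and 533 and 336 in G9aΔHep liver, with overlap (log2 difference -0.14, SE 0.31, adjusted p = 0.912). Cxcl10 had 169 and 174 against 165 and 113, lower in both G9aΔHep mice. Its log2 difference was -0.33 (SE 0.32, adjusted p = 0.772), and -0.052 when the second G9aΔHep mouse was left out.
Cxcl11 was Absent in both WT mice, at 172 and 177, and Present in both G9aΔHep mice, at 204 and 429. The WT signals lay near the 95% quantile of Absent ones, and the log2 difference of 0.76 was 0.22 without the second G9aΔHep mouse. RefSeq lists Cxcl11 of this strain as a transcribed pseudogene. The receptor Cxcr3, of activated T cells, had 128 and 135 in WT and 113 and 188 in G9aΔHep liver, with overlap. Ifng, the inducer of these ligands, was Absent on all arrays, and so were the T cell markers Cd3e, Cd4 and Cd8b1. Other T and NK cell markers were detected. Gzma, Present on every array, had 123 and 98.3 in WT and 125 and 74.4 in G9aΔHep liver. Cd8a had 223 and 99.3 in WT and 99.2 and 117 in G9aΔHep liver, Absent only in the second WT mouse.
Cxcl16, a ligand made both bound to the membrane and shed, had 334 and 223 in WT and 616 and 251 in G9aΔHep liver. The first G9aΔHep mouse was the highest, the groups overlapped, and the log2 difference of 0.53 (SE 0.45, adjusted p = 0.743) became -0.12 without that mouse. Its other tested probe set had 324 and 265 in WT and 374 and 338 in G9aΔHep liver, higher in both G9aΔHep mice, with a log2 difference of 0.28. Its receptor Cxcr6, of NKT and resident T cells, had 84.5 and 7.53 in WT and 55.1 and 3.1 in G9aΔHep liver, so that both genotypes held 1 mouse with a Present call and 1 without.

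**Figure D4:**
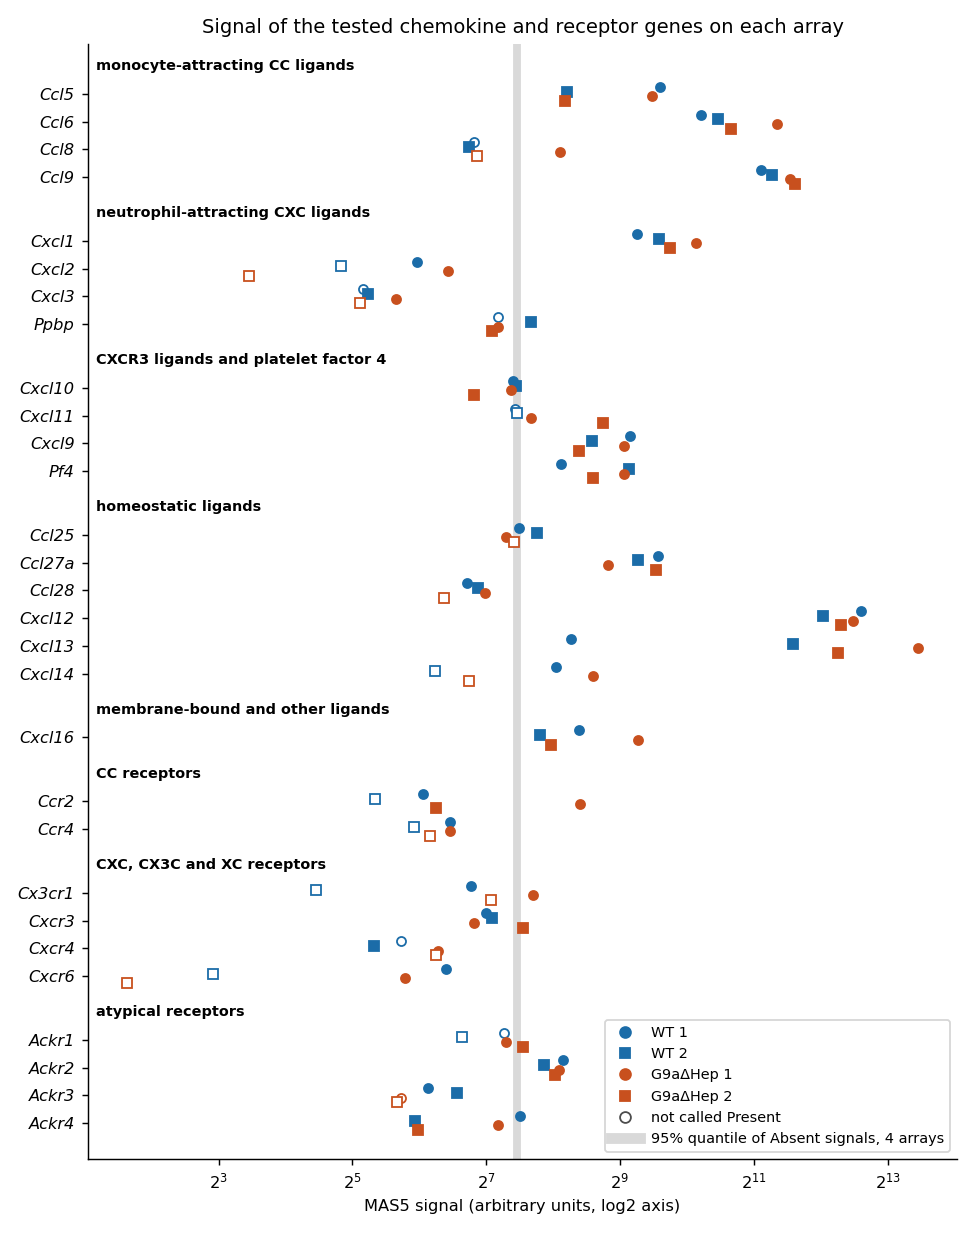
Signals of the 29 tested genes by role (MAS5, log2 axis), with 1 point per array (blue for WT, orange for G9aΔHep, circles for the first and squares for the second mouse), open where the call was not Present, and a grey band at the 95% quantile of Absent signals over the arrays. Most receptors lie at or below the band, and Cxcl13 spans 308 to 11214.

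The receptors had weak signals, and 10 of 22 were tested. Ccr2, the receptor of inflammatory monocytes, had 66.3 and 40.4 in WT and 339 and 75.8 in G9aΔHep liver. The groups did not overlap, the first G9aΔHep mouse stood far above the other 3, and the log2 difference of 1.63 (SE 0.75, adjusted p = 0.541) was 0.55 without it. Its other 3 probe sets were each Present on 1 array at most.
Cx3cr1, the fractalkine receptor of patrolling monocytes and macrophages, had 109 and 21.9 in WT and 207 and 135 in G9aΔHep liver. Here the second WT mouse was far below the others, and the log2 difference of 1.77 (SE 0.78, adjusted p = 0.532) was 0.61 without it. That signal was called Absent and lay below the median Absent signal of its array, 30.7. The second G9aΔHep mouse was also called Absent, and only the first lay above the 95% quantile of Absent signals. The other probe set of Cx3cr1 was Absent on all arrays and had a log2 difference of -0.52. Cxcr4, the receptor of CXCL12 on most leukocytes, had 53 and 39.9 against 77.9 and 76, without overlap, and 2 of the 4 calls were Absent (log2 difference 0.74, SE 0.48, adjusted p = 0.661).
Ccr4, of type 2 and regulatory T cells, had 87.6 and 60.3 in WT and 87.8 and 71.2 in G9aΔHep liver, with overlap. No conventional receptor passed the adjusted test.
Of the 4 tested atypical receptors none passed the test. Ackr1, the Duffy antigen receptor of venular endothelium and erythroid cells, was Absent in WT liver, at 155 and 99.5, and Present in G9aΔHep liver, at 157 and 186. The first mice of both genotypes were nearly equal, and the log2 difference of 0.46 was 0.14 without the second WT mouse. Ackr3, which scavenges CXCL12, was Present in WT liver, at 70.3 and 94.6, and not in G9aΔHep liver, at 52.7 and 51 (log2 difference -0.65). All 4 signals of Ackr3 lay below the 95% quantile of Absent ones.
Ackr2, the scavenger of inflammatory CC ligands, had 284 and 233 in WT and 272 and 262 in G9aΔHep liver, with overlap (log2 difference 0.05, SE 0.23, adjusted p = 0.959). This value turned to -0.054 after quantile normalization. Ackr4, the scavenger of CCL19, CCL21 and CCL25, had 182 and 61.2 in WT and 145 and 62.9 in G9aΔHep liver, with overlap (log2 difference -0.15). Its other tested probe set had 143 and 120 in WT and 117 and 40.6 in G9aΔHep liver, lower without overlap, with a log2 difference of -0.92 and a call of Absent in the second G9aΔHep mouse.

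The genes that act on chemokines or below their receptors gave no call either. Of 24 tested genes of receptor signalling, 0 passed in either direction, 20 lay above 0 and the median log2 difference was 0.20. Of all genes tested, 53.4% lay above 0, with a median of 0.02. The smallest p-values were those of Grk3, a kinase that desensitises receptors (log2 difference 1.29, adjusted p = 0.317), Arrb2, an arrestin (0.69, adjusted p = 0.335), and Prex1, an exchange factor for Rac (0.87, adjusted p = 0.357). All 3 were higher in both G9aΔHep mice than in both WT mice, as were 22.3% of all genes tested. They were picked by their p, so this separation adds no further support. Gnai1, next by p, was lower in both G9aΔHep mice (-0.61, adjusted p = 0.413).
Of 7 tested inducers of chemokine genes 0 passed, with a median of 0.06, and Nfkb2, Relb, Tnf, Il6, Ifng and Tlr4 were Absent on all arrays. Irf7, an interferon regulator, had a log2 difference of -0.52 (adjusted p = 0.53), and Nfkbia, the inhibitor and target of NF-κB, one of 0.13 (adjusted p = 0.732). Of 8 tested genes of chemokine trimming and heparan sulphate display 0 passed, with a median of -0.07. They included the peptidase Dpp4, at 0.03 (adjusted p = 0.955), and the syndecan Sdc2, at -0.16 (adjusted p = 0.707).

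Markers of cells that make or carry these genes were measured beside them. All 10 tested macrophage and Kupffer cell markers lay above 0, as did 53.4% of all genes tested, with a median log2 difference of 0.48. Their summed signal was 31276 and 45690 in WT and 69018 and 43597 in G9aΔHep liver. The first G9aΔHep mouse was the highest and the first WT mouse the lowest, while the other two lay close together. For 8 stellate cell and fibroblast markers the sums were 10744 and 15369 in WT and 20564 and 12648 in G9aΔHep liver, again highest in the first G9aΔHep and lowest in the first WT mouse, and most of the sum was Dcn. All 8 lay above 0, beside the same 53.4% of all genes, with a median log2 difference of 0.60. Acta2, an actin of contractile cells, had 201 and 232 in WT and 531 and 405 in G9aΔHep liver (adjusted p = 0.198).
For 4 tested markers of monocytes and dendritic cells the sums were 1551 and 1655 in WT and 2688 and 1588 in G9aΔHep liver, and most of the sum was Plac8. The other 3 were higher in both G9aΔHep mice, as were 22.3% of all genes tested. Among them was Itgax, the CD11c integrin, with 64 and 73.4 in WT and 163 and 145 in G9aΔHep liver (log2 difference 1.16). Itgax was called Absent in both WT mice and was tested only through its Present calls in G9aΔHep liver. Its difference and its place among these 3 are therefore a description. All 4 signals of Itgax lay below the 95% quantile of Absent ones. S100a4 had 70.3 and 63.2 in WT and 269 and 100 in G9aΔHep liver. Of the neutrophil markers 3 were tested, with sums of 1124 and 758 in WT and 2410 and 390 in G9aΔHep liver, and Elane, Mpo, Camp and Csf3r were Absent on all arrays. Only 2 T and NK cell markers were tested, with sums of 346 and 198 in WT and 224 and 192 in G9aΔHep liver.
For 4 B and plasma cell markers the sums were 684 and 612 against 999 and 569. The sum of 999 held 445 from the plasma cell marker Jchain, whereas the B cell markers Ms4a1 and Cd79b were highest in the first WT mouse. For 7 markers of sinusoidal endothelium they were 11900 and 9603 against 10308 and 9633, and for 7 hepatocyte markers 447278 and 435292 against 441347 and 395895. No marker in these lists passed the adjusted test. The part of cell numbers in any difference of a chemokine or receptor gene was not tested.
Between the G9aΔHep mice, the first lay above the second in 23 of the 29 chemokine and receptor genes, or 79.3% against 52.2% of all genes tested, with a median log2 difference of 0.53 against 0.02. Among the 23 are Ccr4, Cx3cr1, Cxcr4, Cxcr6, Cxcl14, Ccl8, Cxcl2 and Cxcl3, called Present in the first G9aΔHep mouse and Absent in the second. Without the call in the first they would not have been tested, so this count is a description. Between the WT mice, the first lay above the second in 16 of 29, with a median of 0.28 against a value near 0 for all genes.

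**Figure D5:**
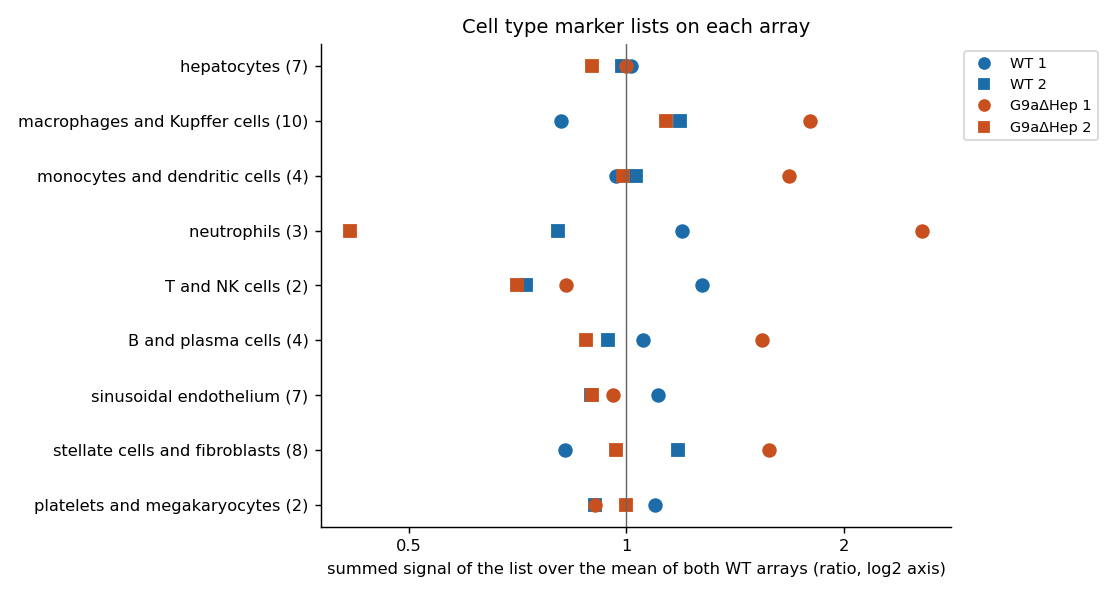
Summed MAS5 signal of each cell type marker list on each array, divided by the mean of both WT arrays (log2 axis), with the number of tested markers in brackets; blue is WT, orange G9aΔHep, circles the first and squares the second mouse. The first G9aΔHep mouse is the highest for macrophages, monocytes and dendritic cells, neutrophils, the joint list of B and plasma cells, and stellate cells. Hepatocyte sums differ little, from 395895 to 447278.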

How the data were processed

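Total RNA of non-tumorous liver from 2 WT and 2 G9aΔHep mice was hybridised to 1 GeneChip Mouse Genome 430 2.0 array each, and groups follow the submitters' labels. MAS5 is the tool named by the submitters, without a version. Its deposited signals are intensities that the authors left on a linear scale, already corrected for background and scaled by array. A detection p-value and a Present, Marginal or Absent call were deposited beside each. The series matrix held the same signals (largest relative difference 5e-06), and no further scaling was applied. Probe sets were named from the platform annotation, and all 57 member symbols matched RefSeq of GRCm38.p6 through their Entrez identifiers.

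Log2 signals of 10350 genes were tested with limma 3.58.1 in R 4.3.3 (lmFit, then eBayes with a variance trend on the mean, no pseudocount, 2 residual and 4.02 prior degrees of freedom), with Benjamini-Hochberg adjustment over all genes and a threshold of 0.05. Each gene was represented by its brightest probe set, that is the one with the highest mean log2 value of those called Present on 2 or more arrays. The script was tested on simulated data. The SE is that of limma. The number of arrays limits the precision. Replicates are separate mice, and no source names a litter or batch. The p-values rest on the spread between these arrays, which eBayes partly shares across genes.

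Members and lists were chosen with earlier results of these data known. Values were given for members with an unadjusted p under 0.05, the 3 brightest and the 2 with the largest difference in each role group, and those whose probe sets disagree in sign, and in each pathway list for genes among the 3 with the smallest p. Naming Dpp4, Ccl2, Ccr1, Cxcr5 and single markers lay outside this rule and came after their values were seen. Alternatives were quantile normalization, centring, no trend, log2(signal + 32), other detection filters and probe set rules, the methods' t-test and leaving out each array.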

Additional observations from a re-analysis of the deposited data

How the results depend on the processing

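Under every alternative tried 0 tested members and 0 pathway genes passed the adjusted test, and the smallest adjusted p of a member was 0.0909, for Cxcl13 without the second WT array. The number of all genes called was 40, and 0 without a mean-variance trend (963 at an unadjusted p under 0.05), 0 by the methods' t-test (855), 15 without a detection filter and 26 among genes Present on all 4 arrays. It was 8 to 71 with 1 array left out. The median log2 difference of ligands was -0.072 to 0.42 and that of receptors 0.026 to 0.71 with 1 array left out. With no array left out, 240 of 246 values of single members kept their direction and their side of the threshold. The other 6 were Ackr2 after quantile normalization (-0.054) and after centring (-0.012), Cxcr6 without a detection filter (0.33), Ccl28 as the mean of its probe sets (0.0028), and Cxcl12 as the mean of its probe sets (-0.12) and with each probe set on its own (-0.30). The settings without a trend and by the methods' t-test use the log2 differences of the main fit, so their direction could not change. Leaving out 1 array turned the sign of 15 members and left that of 14. The log2 differences then ran over these ranges: Ackr2 -0.091 to 0.19, Ackr4 -0.94 to 0.64, Ccl27a -0.60 to 0.12, Ccl28 -0.43 to 0.18, Ccl5 -0.76 to 0.62, Ccr4 -0.15 to 0.39, Cxcl12 -0.21 to 0.36, Cxcl14 -0.40 to 1.46. For the remaining ones they were Cxcl16 -0.12 to 1.18, Cxcl2 -1.95 to 1.03, Cxcl3 -0.072 to 0.46, Cxcl9 -0.48 to 0.19, Cxcr3 -0.22 to 0.52, Cxcr6 -3.02 to 1.13, Pf4 -0.32 to 0.70. The causes were not tested. No paired analysis was possible because the labels give no replicate numbers that pair mice of different genotypes. Of the 28 untested members, Ccl4 and Ccrl2 had signals above the 95% quantile of Absent ones on all 4 arrays, and what difference could be detected in weak signals was not tested.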
